A study of Mus musculus with 18 samples.

Results

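A set of 5 genes of glucose synthesis was followed through retinoid treatment of F9 cells, a mouse embryonal carcinoma line that turns into endoderm-like cells when given retinoic acid. They were Fbp1, Fbp2, Pck1, Pck2 and Pcx, 5 of the 19938 genes measured with a probe set of 1 symbol. They were picked by symbol, and Fbp1 and Fbp2 because they were higher with BMS961 on these arrays. The late values of Fbp1 and Fbp2 are therefore given as a description, with no test, while Pck1, Pck2 and Pcx were tested. The retinoid groups were BMS961 at 0.1 µM, an agonist of RARγ per the labels, and at 1 µM all-trans retinoic acid (ATRA), which activates every retinoic acid receptor, BMS753, specific for RARα, and BMS641, specific for RARβ. Each retinoid had 1 array at 2, 6, 24 and 48 h, and the ethanol vehicle had 2 arrays, both at 48 h. The dose of BMS961 was not matched to that of the other retinoids, and at 2, 6 and 24 h a retinoid array differed from vehicle in time as well as in agent. Whether the 2 vehicle arrays were grown as separate cultures is not in the labels, and their difference may be technical. All cells were of 1 line, so the arrays show no variation between lines.

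Gluconeogenesis makes glucose from lactate, amino acids and glycerol, chiefly in liver and kidney. It shares its reversible steps with glycolysis and goes round the one-way steps with enzymes of its own. Pyruvate carboxylase (Pcx) makes oxaloacetate in mitochondria, and the phosphoenolpyruvate carboxykinases turn it into phosphoenolpyruvate in the cytosol (Pck1) or in mitochondria (Pck2). Fructose-1,6-bisphosphatase then removes a phosphate from fructose 1,6-bisphosphate. Fbp1 is the form known from liver and kidney, and Fbp2 the form known from muscle.

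Fbp1 and Fbp2 lie side by side on chromosome 13 of GRCm38, both on the minus strand. Fbp1 spans chr13:62864753-62888298 and Fbp2 spans chr13:62836884-62858400, with 6352 bases between them. Each of their symbols is listed as an older synonym of the other gene, so the probe sets were matched by Entrez number. Pck1 lies at chr2:173153073-173159274, Pck2 at chr14:55540263-55550020 and Pcx at chr19:4510472-4621752. Each of the 5 genes had 1 probe set. Shared signal between the Fbp1 and Fbp2 probe sets was not tested.

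The 250 bases before the listed transcript start of Fbp1 (chr13:62888283-62888532, minus strand) and of Fbp2 (chr13:62858401-62858650, minus strand), from RefSeq on GRCm38, are shown because these neighbours were both higher late with BMS961 and ATRA. The listed start of Fbp1 lies inside the gene span given above, so the last 16 bases printed for Fbp1 are within that span. Capitals mark the matches to 3 motifs searched on both strands: a retinoid receptor half-site (AGGTCA, where the first base may also be G and the third base may also be T), a GATA motif (AGATAA, where the first base may also be T and the last base may also be G) and a FOXA motif (TGTTTAC, where the second base may also be A and the sixth base may also be G).
Fbp1: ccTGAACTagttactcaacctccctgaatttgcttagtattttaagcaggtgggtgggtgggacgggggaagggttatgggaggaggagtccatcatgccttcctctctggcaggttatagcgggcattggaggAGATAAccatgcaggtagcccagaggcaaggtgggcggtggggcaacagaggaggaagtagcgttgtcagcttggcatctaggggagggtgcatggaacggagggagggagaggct
Fbp2: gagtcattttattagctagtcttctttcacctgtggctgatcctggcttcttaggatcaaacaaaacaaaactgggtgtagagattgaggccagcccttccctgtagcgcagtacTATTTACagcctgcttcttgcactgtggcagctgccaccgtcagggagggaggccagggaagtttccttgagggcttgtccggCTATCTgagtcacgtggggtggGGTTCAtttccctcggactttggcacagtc
In Fbp1 the half-site match began 248 bases before the start and the GATA match 116 bases before it, and there was no FOXA match. In Fbp2 the FOXA match began 135 bases, the GATA match 52 bases and the half-site match 30 bases before the start. None of these matches overlapped. Among 32851 promoter windows of the same kind, 38.6% held a half-site, 26.5% a GATA motif and 11.9% a FOXA motif, so these matches are common. No window of the 5 genes held 2 half-sites as a direct repeat with a spacer of 1, 2 or 5 bases. Such repeats were found in 0.164%, 0.174% and 0.0883% of windows for those spacers in that order. Pck1 held 1 half-site match and 2 GATA matches, and Pck2 held 1 half-site match. The 2 windows of Pcx held 1 half-site match and 1 GATA match between them.

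All levels are log2 values from RMA normalization as deposited, so that 1 unit is a 2-fold difference within a gene. They were not compared between genes. Array medians lay between 5.31 and 5.47. Vehicle array 1 and vehicle array 2 differed by a median absolute 0.23 over all genes, and of the genes that differed by 2-fold or more, 311 were higher and 354 lower in vehicle array 1. Of 9 stem cell markers of F9 cells, 4 stayed within a 2-fold range on the 18 arrays. Pou5f1 (11.8 to 12.21) and Dppa5a (12.83 to 13.52) were among these, and Tdgf1 had the widest range (10.21 to 12.41). By limma 1 of the 9 was called late with BMS961 (Utf1, lower by 0.93 on the log2 scale), against 1.26% of all genes. Tdgf1 (-1.12) and Sox2 (-0.60) were also lower there and were not called (limma adjusted p = 0.0694 and 0.115). With ATRA 4 were called, all lower (Utf1, Zfp42, Tdgf1 and Sox2), against 4.71% of all genes, and 0 were called with BMS753 or BMS641.

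Fbp2 spanned 6.11 to 11.33 over the 18 arrays, and 99.9% of genes had a smaller SD. With BMS961 it had a level of 6.11 at 2 h, 6.73 at 6 h, 9.44 at 24 h and 11.33 at 48 h, against 7.35 and 6.38 on the vehicle arrays. With ATRA it had 7.29, 6.86, 8.44 and 11.02 at the same times. Both courses were within or below the vehicle pair up to 6 h and well above it from 24 h on. With BMS753 Fbp2 had 6.30, 6.56, 7.61 and 8.59. Its 24 h and 48 h arrays lay above both vehicle arrays, by less than those of BMS961 and ATRA at the same time. With BMS641 it had 6.28, 6.57, 6.99 and 6.99, and no array of BMS641 lay above the higher vehicle array. At 48 h the BMS961 level was 15.8-fold that of vehicle array 1 and 30.9-fold that of vehicle array 2. It was 20.2-fold the BMS641 level of the same time, the 4th largest such difference of 19938 genes. The ATRA level at 48 h was 12.7-fold and 24.9-fold those of the vehicle arrays.

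Fbp1 was also higher late with BMS961, and 98.7% of genes had a smaller SD. Its log2 difference was smaller than that of Fbp2, but the 2 were read by different probe sets. The vehicle levels of Fbp1 lay near 4.37, the lower quartile of levels over all genes, and an effect of this on its difference was not tested. With BMS961 it had 4.84 at 2 h, 5.20 at 6 h, 6.83 at 24 h and 6.82 at 48 h, against 4.85 and 4.52 on the vehicle arrays. With ATRA it had 5.39, 5.08, 6.05 and 6.28, all above both vehicle arrays. With BMS753 it had 4.52, 4.93, 5.20 and 5.57, which passed both vehicle arrays from 6 h on. With BMS641 it had 4.69, 4.59, 4.81 and 4.77, all between the vehicle arrays. At 48 h the BMS961 level was 3.93-fold and 4.92-fold those of the vehicle arrays, and 4.13-fold the BMS641 level.

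**Figure D1:**
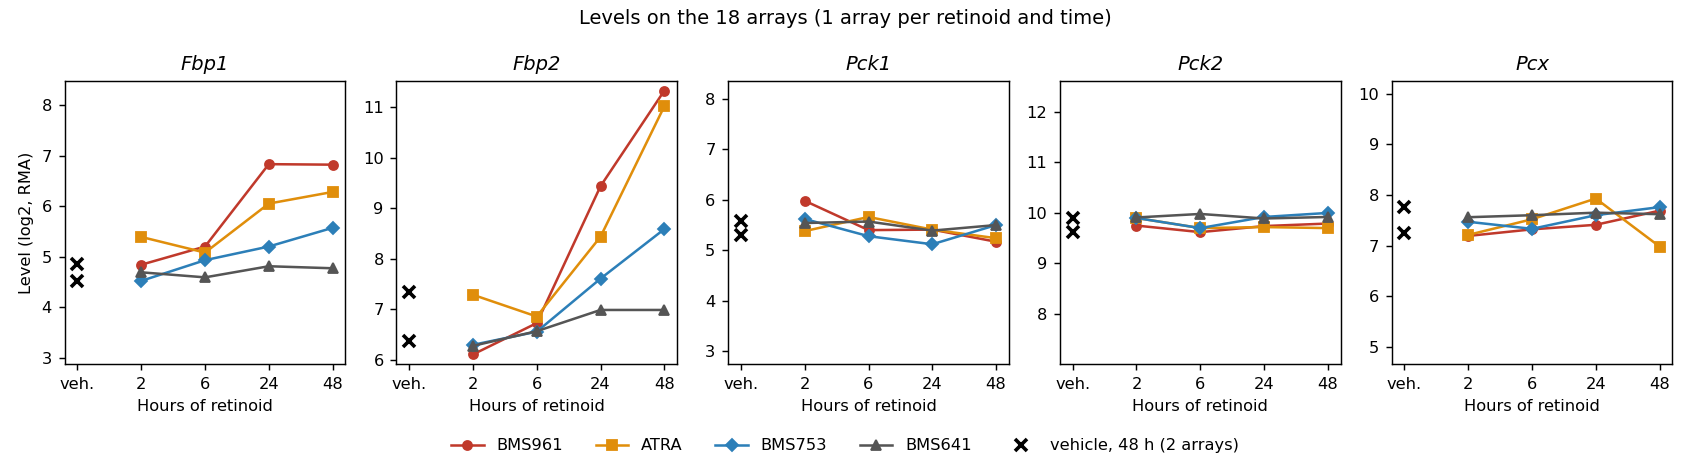
Level of each of the 5 genes (log2, RMA) on every array, with vehicle at the left and then hours of retinoid. Lines join the single arrays of BMS961, ATRA, BMS753 and BMS641, crosses are the 2 vehicle arrays, and every panel spans the same height in log2 units. Fbp2 reached 11.33 with BMS961 and 11.02 with ATRA at 48 h, while Pck1, Pck2 and Pcx stayed near their vehicle levels.

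The timing of the 2 bisphosphatase genes differed. From 6 to 24 h of BMS961 the level of Fbp1 went up by 1.63 and that of Fbp2 by 2.71. From 24 to 48 h the step was -0.01 for Fbp1 and 1.88 for Fbp2. With ATRA the later step of Fbp2, 2.57, was larger than the earlier one, 1.59, and Fbp1 took steps of 0.97 and then 0.24. With BMS753 Fbp2 took steps of 1.05 and 0.98, and Fbp1 of 0.27 and 0.37. Each step rests on 1 array at either end. For Fbp1 most neighbours in the order of levels lay closer together than the vehicle pair, which differed by 0.33. The gaps larger than that were those below the pair of late BMS961 arrays (0.54) and below the pair of late ATRA arrays (0.47). For Fbp2 the vehicle pair differed by 0.97, and the only larger gap was the 1.57 between ATRA at 48 h and BMS961 at 24 h. The order of BMS961 and ATRA at 48 h, 0.31 apart, was within the vehicle spread.

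On 4 retinoid arrays for Fbp1 and 5 for Fbp2 the level was at least 2-fold above both vehicle arrays. These were BMS961 and ATRA at 24 and 48 h for both genes, and BMS753 at 48 h for Fbp2. Of all genes, 0.0251%, 0.0802%, 0.466% and 1.01% were that much higher at 2, 6, 24 and 48 h of BMS961. The shares were 0.456%, 0.406%, 0.532% and 3.26% for ATRA, 0.00502%, 0.0201%, 0.0953% and 0.251% for BMS753 and 0%, 0%, 0.00502% and 0.00502% for BMS641. Since Fbp1 and Fbp2 were chosen for this, nothing is read from these counts. Pck1, Pck2 and Pcx had no such array.

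The 24 h and 48 h arrays of each retinoid were averaged as late in a limma fit to all 18 arrays, with common steps between the times. These are different times and not replicates. Late Fbp2 averaged 10.39 with BMS961, 9.73 with ATRA, 8.10 with BMS753 and 6.99 with BMS641, against 6.86 ± 0.68 with vehicle (SD, n = 2). The differences from vehicle were 3.52 ± 0.49 with BMS961, 2.87 ± 0.49 with ATRA, 1.24 ± 0.49 with BMS753 and 0.13 ± 0.49 with BMS641 (± SE of the fit). Late Fbp1 averaged 6.82, 6.16, 5.39 and 4.79 in the same order, against 4.68 ± 0.23 with vehicle (SD, n = 2). Its differences from vehicle were 2.14, 1.48, 0.70 and 0.11, each ± 0.19. By size, the BMS961 difference was the 3rd largest of 19938 genes for Fbp2 and the 23rd for Fbp1, and the ATRA difference was the 16th and the 174th. These comparisons share the vehicle arrays. Late BMS961 minus BMS641, which uses no vehicle array, was 3.40 ± 0.49 for Fbp2 and 2.03 ± 0.19 for Fbp1.

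Single arrays moved some of these values. For Fbp2 the ATRA difference was 3.68 without the 24 h array and 2.06 without the 48 h array. The BMS753 difference was 1.72 without vehicle array 1 and 0.76 without vehicle array 2. BMS961 minus BMS641 was 4.30 without the BMS641 24 h array and 2.49 without its 48 h array. Both of these arrays were at 6.99, so these 2 shifts came from the common step, which the fit put in place of the missing time. The small BMS641 differences changed sign for both genes without vehicle array 2 or without the BMS641 24 h array. Without that 24 h array the change of sign also came through the common step. Among the retinoids of the same dose, late ATRA minus BMS641 was 2.74 ± 0.49 for Fbp2 and 1.37 ± 0.19 for Fbp1, and late BMS753 minus BMS641 was 1.11 ± 0.49 and 0.60 ± 0.19. Late ATRA minus BMS961 was -0.66 ± 0.49 for Fbp2 and -0.66 ± 0.19 for Fbp1, at doses that differ.

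**Figure D2:**
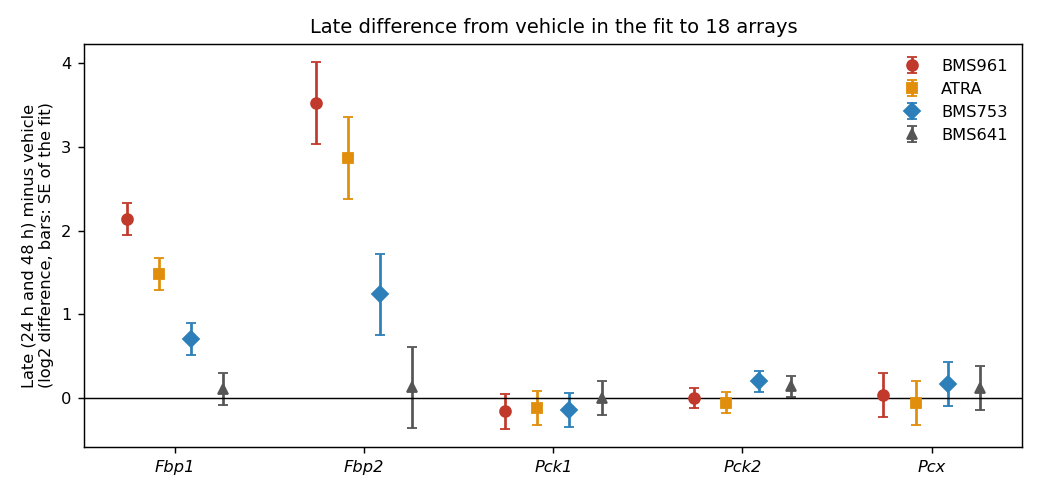
Late (24 h and 48 h) minus vehicle differences (log2) of the 5 genes for BMS961, ATRA, BMS753 and BMS641, with bars for the SE of the limma fit to 18 arrays. Fbp1 and Fbp2 lie above 0 with BMS961, ATRA and BMS753, and the values of Pck1, Pck2 and Pcx lie near 0 with every retinoid.

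The other members of the pathway did not pass the test. Pck2 had levels of 9.75, 9.62, 9.74 and 9.79 at 2, 6, 24 and 48 h of BMS961 and of 9.90, 9.70, 9.72 and 9.70 with ATRA, against 9.90 and 9.62 on the vehicle arrays. With BMS753 it had 9.90, 9.70, 9.92 and 10.0, and with BMS641 9.91, 9.98, 9.89 and 9.92. Of the 16 retinoid arrays 6 lay above both vehicle arrays, 9 between them and 1 below. Its late difference from vehicle was 0.00 with BMS961 (95% interval -0.27 to 0.27, adjusted p = 0.999), and 15.8% of genes had a smaller SD over the 18 arrays.

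Pck1 had 5.98, 5.40, 5.41 and 5.17 with BMS961 and 5.38, 5.66, 5.41 and 5.24 with ATRA, against 5.58 and 5.31 on the vehicle arrays. With BMS753 it had 5.62, 5.28, 5.12 and 5.50, and with BMS641 5.54, 5.57, 5.39 and 5.50. The highest value was thus the BMS961 array at 2 h, and 9 of the 16 retinoid arrays lay between the vehicle arrays. The late BMS961 difference was -0.16 (95% interval -0.61 to 0.29, adjusted p = 0.889).

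Pcx had 7.19, 7.32, 7.41 and 7.69 with BMS961 and 7.21, 7.52, 7.93 and 6.98 with ATRA, against 7.77 and 7.25 on the vehicle arrays. With BMS753 it had 7.47, 7.33, 7.60 and 7.76, and with BMS641 7.56, 7.60, 7.65 and 7.62. Its highest and lowest levels were both ATRA arrays, at 24 h and 48 h, and 12 of the 16 retinoid arrays lay between the vehicle arrays. The late BMS961 difference was 0.04 (95% interval -0.53 to 0.60, adjusted p = 0.988).

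None of Pck1, Pck2 and Pcx was called for any retinoid, late or early, or for late BMS961 minus BMS641, at a limma adjusted p under 0.05, and the count at an unadjusted p under 0.05 was also 0. The calls among all genes were 1.26% for BMS961 late, 4.71% for ATRA late, 0.186% for BMS753 late and 0% for BMS641 late, and 1.19% for late BMS961 minus BMS641. Early, they were 0.0401% for BMS961, 1.25% for ATRA and 0% for BMS753 and BMS641. At the same dose, late BMS753 minus BMS641 was -0.14 for Pck1 (95% interval -0.58 to 0.31), 0.06 for Pck2 (-0.21 to 0.33) and 0.05 for Pcx (-0.52 to 0.61), with 0% of all genes called. A missed threshold does not show that levels were equal. In simulated data for BMS961 late against vehicle, 67% of 100 genes changed 2-fold and 98% of 50 changed 4-fold were recovered among 19938 genes. The simulated noise was independent between genes and arrays, with no time steps and no vehicle difference shared by genes. Recovery on the real arrays may therefore be lower.

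The wider pathway was read from 6 lists chosen from textbook knowledge. Besides Fbp1 and Fbp2 they held 95 measured genes, with Pck1, Pck2 and Pcx counted again among them. Of all genes, 1.26% were called late with BMS961, 4.71% with ATRA, 0.186% with BMS753 and 0% with BMS641. The share of all genes called in at least 1 of these was not counted, so nothing is read from the count below. Of the 95, 6 were called in at least 1 late comparison with vehicle. These were 7 calls, and leaving out 1 array gave 3 to 46, with 37 without vehicle array 1 and 46 without vehicle array 2. For BMS961 the calls were 0 of 9 bypass genes (enzymes and sugar-phosphate transporters), 0 of 8 reversible glycolytic enzymes and 0 of 13 one-way glycolytic enzymes. They were 1 of 22 genes of precursor entry, 1 of 28 regulators and 0 of 15 genes of the amino acid response under ATF4, a factor known to act on Pck2. At an unadjusted p under 0.05 the counts were 1, 1, 3, 9, 4 and 1, against 2307 of all 19938 genes. The list medians were 0.00, 0.19, 0.11, 0.22, -0.03 and -0.06 in that order, against 0.01 for all genes. For ATRA the calls were 1 of 9, 0 of 8, 0 of 13, 3 of 22, 1 of 28 and 0 of 15. At an unadjusted p under 0.05 they were 3, 3, 4, 8, 9 and 2, against 3938 of all genes. For BMS753 and BMS641 no list gene was called. At an unadjusted p under 0.05 the counts for BMS753 late were 0, 1, 2, 8, 2 and 0, against 1741 of all genes. For BMS641 late they were 0, 4, 3, 5, 3 and 0, against 916.

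The glucose 6-phosphatases that end the pathway, G6pc, G6pc2 and G6pc3, were not called with any retinoid late. G6pc (3.71 to 4.31) and G6pc2 (3.47 to 4.03) stayed below 4.37, the lower quartile of levels over all genes. Whether they were above background was not tested. The called bypass gene was Slc37a2, a sugar-phosphate transporter, which rose late with ATRA by 0.84 ± 0.19 (adjusted p = 0.0319). Its levels with BMS961 at 24 and 48 h were 6.53 and 7.28, and with ATRA 6.59 and 7.27, against 6.37 and 5.81 on the vehicle arrays. Late BMS961 minus BMS641 was 1.04 ± 0.19 for Slc37a2 (adjusted p = 0.0313).

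Among genes of precursor entry, Aqp3, a water and glycerol channel, was higher late with ATRA by 3.37 ± 0.76 (limma adjusted p = 0.0314). This was not a late rise, as Aqp3 was already at 11.05 and 11.08 at 2 and 6 h of ATRA. Aqp3 was also called higher early with ATRA, against 1.25% of all genes called. With BMS961 it had 8.78 and 9.91 at 2 and 6 h. The BMS961 difference of Aqp3 was 3.44 ± 0.76 and missed the threshold (adjusted p = 0.0574). Its levels at 24 and 48 h were 10.92 and 10.78 with BMS961 and 11.84 and 9.74 with ATRA, against 8.88 and 5.95 on the vehicle arrays, a pair that differed by 2.93. Pdk1, a kinase that shuts off pyruvate dehydrogenase, fell late with ATRA by 1.42 ± 0.20 on the log2 scale (adjusted p = 0.00445). Pdk1 had 8.08 and 7.77 at 24 and 48 h of ATRA and 9.18 and 8.27 with BMS961, against 9.13 and 9.57 on the vehicle arrays. Gpd2, the mitochondrial glycerol 3-phosphate dehydrogenase, fell with ATRA by 0.61 ± 0.15 on the log2 scale (adjusted p = 0.0441). Mpc1, a subunit of the mitochondrial pyruvate carrier, rose with BMS961 by 0.80 ± 0.16 (adjusted p = 0.0411). The BMS753 difference of Mpc1 was as large, 0.81 ± 0.16, and missed the threshold (limma adjusted p = 0.0985). Late BMS961 minus BMS641 was 0.52 ± 0.16 for Mpc1 and was not called (limma adjusted p = 0.199).

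Foxa1, a forkhead factor of endoderm and liver, was the called regulator. Its levels at 24 and 48 h were 6.93 and 7.40 with BMS961 and 7.42 and 8.19 with ATRA, against 6.08 and 5.15 on the vehicle arrays. It rose late by 1.55 ± 0.28 with BMS961 (adjusted p = 0.0199) and by 2.19 ± 0.28 with ATRA (adjusted p = 0.00208). Late BMS961 minus BMS641 was 1.77 ± 0.28 for Foxa1 (adjusted p = 0.014), 4.01 ± 0.76 for Aqp3 (adjusted p = 0.0344) and -0.96 ± 0.20 for Pdk1 (adjusted p = 0.0484). Pgam2, the muscle form of phosphoglycerate mutase, had the largest BMS961 difference among the reversible enzymes, 1.64 ± 0.45, and was not called (adjusted p = 0.124). It had 6.41 and 6.96 at 24 and 48 h of BMS961 and 5.52 and 7.74 with ATRA, against 5.0 and 5.07 on the vehicle arrays. Ppargc1a, a coactivator known for raising gluconeogenic genes in fasted liver, averaged 3.68 late with BMS961, against 3.70 with vehicle. It too stayed below the lower quartile of levels over all genes, at 3.46 to 3.83.

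**Figure D3:**
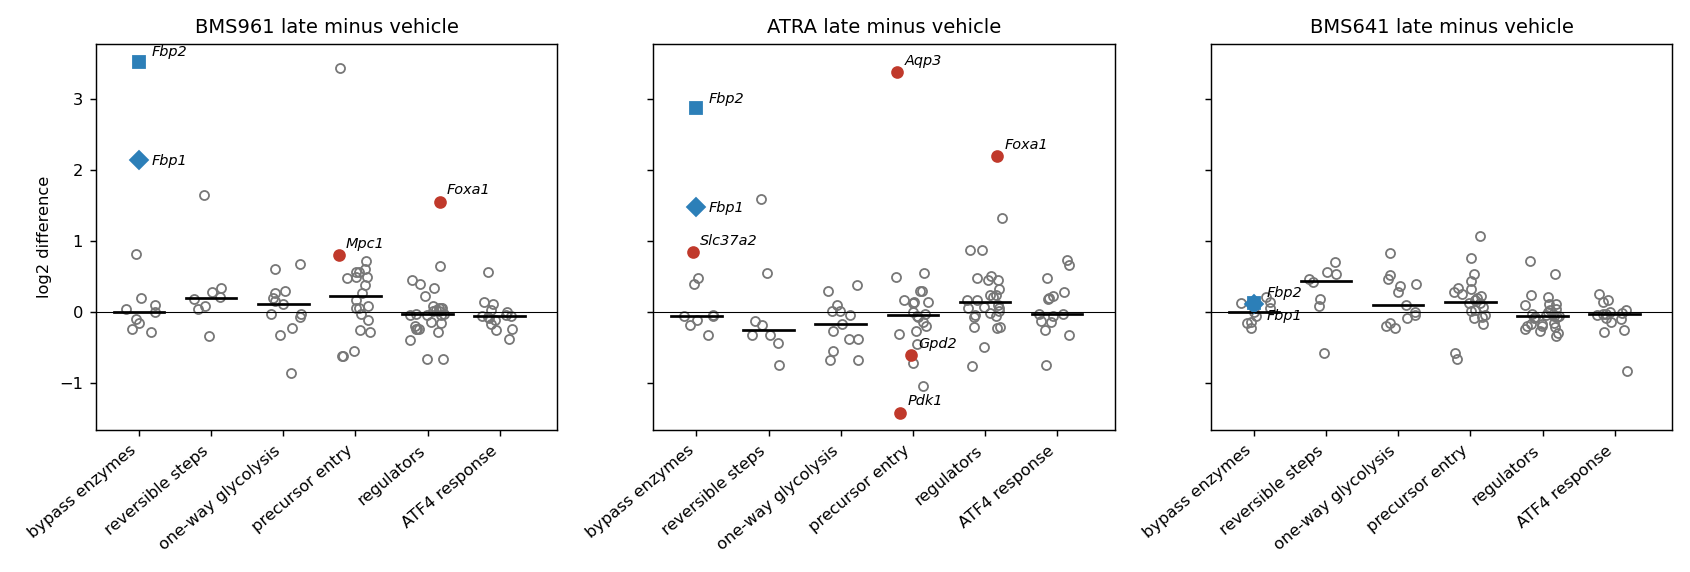
Late minus vehicle differences (log2) of the genes of the 6 pathway lists for BMS961, ATRA and BMS641. Each circle is a gene, filled and named where the limma adjusted p was under 0.05, black bars are list medians without Fbp1 and Fbp2, and blue marks are Fbp1 (diamond) and Fbp2 (square). Most genes lie near 0, while Fbp2 stands at 3.52 with BMS961, 2.87 with ATRA and 0.13 with BMS641.

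Several of these calls were lost when 1 array was left out, and none of their differences turned direction. Leaving out an array outside the comparison left the log2 difference unchanged and changed the residual error and the adjustment, with adjusted p up to 0.0906 for these genes. In ATRA late, the calls of Slc37a2, Gpd2 and Aqp3 were lost without vehicle array 2 (adjusted p = 0.252, 0.304 and 0.201), and those of Pdk1 and Foxa1 were kept without any 1 of the 18 arrays. Slc37a2 was also lost without the ATRA 48 h array, the 2 h and 6 h arrays of BMS961 and of BMS641, and each BMS753 array. Gpd2 was also lost without the ATRA 2, 6 and 48 h arrays, each BMS961 array, each BMS753 array, and the 2 h and 6 h arrays of BMS641. Aqp3 was also lost without the ATRA 24 h array, each BMS961 array, and the 2 h and 6 h arrays of BMS753 and of BMS641. In BMS961 late, Mpc1 was lost without vehicle array 1 (adjusted p = 0.0983), the 2 h and 6 h arrays of ATRA and of BMS753, the 24 h and 48 h arrays of BMS961, and each BMS641 array. Foxa1 was lost there without the 24 h or the 48 h BMS961 array (adjusted p up to 0.222). In late BMS961 minus BMS641, Foxa1 was lost without the 24 h or 48 h array of either retinoid. There Slc37a2 was lost without each BMS961 and BMS753 array and the 2, 6 and 48 h arrays of BMS641 (adjusted p up to 0.591). Aqp3 was lost without the 2 h and 6 h ATRA arrays and each BMS array (up to 0.354), and Pdk1 without the same arrays except BMS961 at 24 h (up to 0.778).

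The vehicle arrays themselves differed in genes of this pathway. Over the 8 reversible and the 13 one-way glycolytic enzymes, vehicle array 1 minus vehicle array 2 had medians of -0.47 and -0.49, against 0.05 over all genes. Fbp2 was 0.97 and Fbp1 0.33 higher in vehicle array 1. The labels name no array sets. An earlier look at the values of these arrays had put vehicle array 1 with the ATRA arrays and vehicle array 2 with the BMS arrays, and not all genes follow that grouping at every time. Ldha, a lactate dehydrogenase chosen after its values were seen, had 13.02, 12.93, 11.69 and 11.73 at 2, 6, 24 and 48 h of ATRA, against 11.71 and 13.14 on the vehicle arrays. With that grouping as a block each retinoid was compared with 1 vehicle array, which for the called genes gave the same adjusted p as leaving out the other vehicle array and was no separate check.

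The mean level of 14 markers of primitive and parietal endoderm was 7.12 and 8.86 at 24 and 48 h of BMS961 and 7.31 and 9.76 with ATRA, against 7.25 and 6.29 on the vehicle arrays. It was 6.54 and 6.97 with BMS753 and 6.32 and 6.45 with BMS641. At 24 h the marker mean was thus between the vehicle arrays with BMS961 and just above both with ATRA. At 48 h it was above both with BMS961 and ATRA. Fbp1 and Fbp2 were above both at 24 h with either. Single markers differed at 24 h of BMS961. Gata6 (9.42 against 7.08 and 6.03) was above both vehicle arrays, Dab2 (6.09 against 8.20 and 5.51) between them and Lamb1 (7.68 against 8.32 and 8.03) below both. The mean therefore gives no order in time between Fbp1, Fbp2 and these markers. Of the 14, 1 was called for BMS961 late (Gata6, which is also on the list of retinoid response genes), against 1.26% of all genes, and 4 for ATRA late, against 4.71%. At an unadjusted limma p under 0.05 the counts were 6 for BMS961 late and 13 for ATRA late, against 2307 and 3938 of all 19938 genes. They were 1 for BMS753 and 0 for BMS641, against 1741 and 916. The median late difference of the 14 was 0.94 with BMS961, 1.6 with ATRA, 0.06 with BMS753 and -0.26 with BMS641. Vehicle array 1, the higher of the pair for Fbp2, had 6 of the 14 at least 2-fold higher than vehicle array 2. The part of these cells in the levels of Fbp1 and Fbp2 was not tested, and in bulk RNA more cells of a type and more RNA per cell cannot be told apart.

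Markers of the tissues in which Fbp1 and Fbp2 are best known were not called. Of all genes, 1.26% were called late with BMS961, 4.71% with ATRA, 0.186% with BMS753 and 0% with BMS641. At those shares lists this short would hold few calls or none. At an unadjusted limma p under 0.05 the counts were 2307, 3938, 1741 and 916 of all 19938 genes in that order. Of 12 skeletal muscle markers 0 were called by limma with any retinoid late, also 0 at an unadjusted p under 0.05, and 11 stayed within a 2-fold range over the 18 arrays, Myod1 and Ckm among them. The exception was Mylpf, a myosin light chain, with 9.18 and 8.48 at 24 and 48 h of BMS961, against 9.18 and 6.74 on the vehicle arrays. The mean of the muscle markers was 5.30 and 5.41 at 24 and 48 h of BMS961, against 5.51 and 5.13 with vehicle. Of 13 visceral endoderm and liver markers 0 were called (1 with ATRA and 0 with the others at an unadjusted p under 0.05) and 12 stayed within a 2-fold range, including Alb (3.84 to 4.26) and Afp (4.13 to 4.71). Their mean was 4.49 and 4.86 with BMS961 at those times, against 4.86 and 4.47 with vehicle. All levels of Alb lay below 4.37, the lower quartile of levels over all genes. Cubn, an endocytic receptor, ranged from 4.38 to 9.07 and was high at 48 h of ATRA and BMS961. Of 9 kidney tubule markers, which share Cubn with that list, 0 were called (again 1 and 0 unadjusted) and 7 stayed within a 2-fold range. The kidney mean was 4.96 and 5.43 with BMS961, against 5.38 and 4.86 with vehicle.

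Retinoid response genes were read as a check of the treatments. There were 8, among them Cyp26a1, which breaks down retinoic acid, and Rarb. By limma 6 were called higher late with BMS961, 8 with ATRA, 1 with BMS753 and 0 with BMS641. Of all genes, 1.26%, 4.71%, 0.186% and 0% were called in that order. For BMS753 5 of the 8 reached an unadjusted p under 0.05, against 1741 of all 19938 genes. Their median differences were 2.95, 3.69, 0.83 and -0.10 in that order. With BMS641 0 of the 8 reached even an unadjusted p under 0.05, beside the late differences of 0.13 for Fbp2 and 0.11 for Fbp1.

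The profiles of Fbp1 and Fbp2 over the 18 arrays had a Pearson correlation of 0.914 and a Spearman correlation of 0.841. The arrays share their time courses, array sets and normalization, so correlations here are descriptions only. Among 876 genes with an SD of at least 0.5, the profiles most like that of Fbp1 were Gata6 (0.924), an endoderm transcription factor, Fbp2 (0.914), Plagl1 (0.914), a zinc finger factor, Gfra1 (0.912), a receptor of GDNF, and Ddc (0.91), the enzyme that makes dopamine and serotonin. Those most like Fbp2 were Prex2 (0.961), an exchange factor for Rac, Plpp3 (0.952), a lipid phosphatase, Meis1 (0.948), a Hox cofactor, Ddc (0.947) and Arpin (0.946), an inhibitor of the Arp2/3 complex. Gata6 had 9.42 and 10.93 at 24 and 48 h of BMS961 and 8.52 and 11.30 with ATRA, against 7.08 and 6.03 with vehicle. Ranked by Spearman correlation, 1 of these 5 was kept for Fbp1 (Gata6) and 0 for Fbp2.

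**Figure D4:**
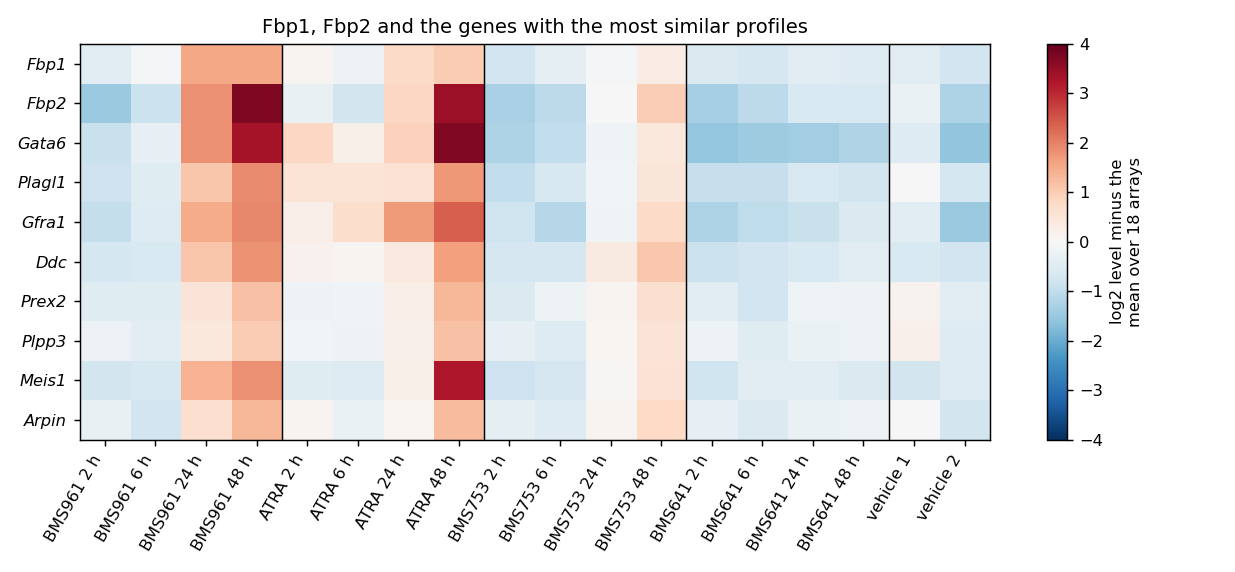
Level minus the gene's mean over the 18 arrays (log2, colour) for Fbp1, Fbp2 and the genes with the most similar profiles by Pearson correlation, with retinoid arrays grouped by agent and the vehicle arrays at the right. The late BMS961 and ATRA arrays are high, and Fbp2 stands out with Gata6 for its span. BMS753 at 48 h is also high for several genes, above ATRA at 24 h for Fbp2 (8.59 against 8.44). For Prex2, Plpp3 and Arpin it is also above BMS961 at 24 h.

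Genes were taken in order of their start, 4 before the Fbp2 and Fbp1 pair and 4 after it. Among those after, the long noncoding RNA gene Gm38679 (chr13:62877064-62885078) lies inside the span of Fbp1. Of the 8, 1 was measured by a probe set of 1 symbol. This was Aopep, an aminopeptidase gene at chr13:62964893-63326096, which stayed between 5.40 and 6.12 on all arrays. Its late BMS961 difference was -0.05. On the other side the nearest measured gene, chosen after its values were seen, was Mir713, with levels from 3.45 to 4.48.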

How the data were processed

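The data were levels of 18 arrays of F9 cells, with biotin-labelled RNA on whole-transcript arrays of Affymetrix, per the labels' protocols. The authors deposited log2 levels per probe set, and per the submitters' processing notes these came from RMA in Affymetrix Expression Console 1.1. Which arrays were normalized together is not given in the sources used here. Of 35556 probe sets, 21789 had 1 symbol, 1621 had several and 12146 were not listed in the platform annotation, and 21698 were matched by Entrez number. Where a gene had more than 1 probe set (999 genes), that of the highest mean was kept, leaving 19938 genes with no filter on dim ones. The members and lists were chosen with earlier results of these data known.

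Levels were fitted with limma 3.58.1 under R 4.3.3, using 9 group means (vehicle, and each retinoid early, 2 h and 6 h, and late, 24 h and 48 h) and 1 step shared by all retinoids from 2 to 6 h and 1 from 24 to 48 h. There were 7 residual degrees of freedom, with a prior of 4.55 from eBayes. A gene was called where its p, adjusted over all genes after Benjamini and Hochberg, was under 0.05. The p-values rest on the vehicle pair and on departures from the common steps, so the spread of repeated cultures is not in them. In the simulation of BMS961 late against vehicle there were 12 false calls. Of 173 list entries 162 were measured. Named genes were the 5 members, list genes called or largest in a late comparison, the 5 most similar profiles and, by start, the 4 genes before and 4 after the pair. Promoters came from RefSeq on GRCm38.p6. Other settings were quantile normalization, median-centred arrays, a filter on dim genes, averaged probe sets, a robust eBayes with a trend, no common steps, 17 group means, arrays of the phase and vehicle only, the array set (inferred from values, not in the labels) as a block, leaving out each array, other folds and Spearman correlation. Tables and figures were made in Python 3.11.15 (pandas 2.3.3, numpy 2.4.6, matplotlib 3.10.9).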

Additional observations from a re-analysis of the deposited data

How the results depend on the processing

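No paired analysis was possible because no 2 groups share replicate numbers in the labels, and retinoid arrays of the same time entered the fit through the common steps. Pck1, Pck2 and Pcx were called in none of 400 alternative values of their 15 late tests (lowest adjusted p 0.132), although the sign turned in 25. With quantile normalization and with arrays centred on their median, late values turned to 0.0098 and 0.0121 for Pck1 with BMS641, -0.0179 and -0.0487 for Pck2 with BMS961 and -0.0223 and -0.0118 for Pcx with BMS961, and the array set as a block turned Pck1 with BMS641 to 0.132. The cause was not tested. Leaving out each array gave -0.255 to 0.0126, -0.335 to 0.0183, -0.375 to 0.10 and -0.135 to 0.132 for Pck1 with ATRA, BMS961, BMS753 and BMS641 late and -0.334 to 0.0199 for BMS961 minus BMS641. It gave -0.195 to 0.0838 for Pck2 with ATRA and -0.139 to 0.14 with BMS961. For Pcx it gave -0.606 to 0.488, -0.242 to 0.317, -0.0919 to 0.43 and -0.141 to 0.381, and -0.363 to 0.197 for BMS961 minus BMS641. For Fbp1 it gave -0.0561 to 0.269 with BMS641. For Fbp2 it gave 2.06 to 3.68 with ATRA, -0.779 to 1.03 with BMS641 and 2.49 to 4.3 for BMS961 minus BMS641. The ends of the last 2 ranges came from the common step put in place of a left-out BMS641 time, since Fbp2 was at 6.99 at both times.

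The 7 list calls became 0 with 17 group means, 1 with the arrays of the phase and vehicle only and 11 with the array set as a block. Without each array they ranged from 3 to 46, with 37 without vehicle array 1, 46 without vehicle array 2, 16 without ATRA at 24 h, and 3 or 4 without any 1 BMS961 array or a 2 h or 6 h array of BMS753 or BMS641. Of the 9 values at least 2-fold above both vehicle arrays, 5 were 3-fold above. The number of arrays limits the precision, and signal over background was not used here.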
